A study of Rattus norvegicus with 16 samples.

Results

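Transcripts of 10 cytokine receptor chains were followed in the whole blood of 16 saline control rats, out of 18031 genes listed for every animal. The chains, chosen by name, are Il2ra, Il2rb, Il2rg, Il4r, Il10ra, Il10rb, Il17ra, Il6st, Ifngr1 and Csf2rb. By symbol 9 of them were found, and Il4r was found under its synonym Il4ra. Each had 1 entry in the files, and all 10 had counts in all 16 animals, the lowest being 93 counts of Il2ra in control 8. The animals were male Sprague-Dawley rats aged 85 to 90 days. Each received 4 injections of saline at 1 ml/kg, 2 h apart, without food or water over that time, and was sacrificed 3 h after the last dose. Blood was drawn from the heart, frozen, depleted of alpha and beta globin mRNA and sequenced. All 16 libraries belong to this 1 group. What can be examined is therefore the spread of the chains among control animals, the cell type transcripts with which each chain moved, and the differences between the run codes under which the libraries were filed.

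Cytokine receptors of this kind are built from a chain that binds a particular cytokine and a chain that several receptors share. Binding brings the chains together, Janus kinases on their tails become active, and Stat transcription factors are phosphorylated and move to the nucleus. The interleukin 17 receptor is the exception here, because it signals through adaptor proteins of the Traf family. In blood the chains are spread unevenly over leukocytes. The interleukin 2 receptor is best known from T cells and NK cells, and the shared chain of the GM-CSF receptor from granulocytes and monocytes.

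The promoters of 4 chains are printed because the levels described below moved in different company, Il2ra and Il2rg with lymphocyte transcripts and Ifngr1 and Il10rb with neutrophil transcripts. Each line gives the 250 bases before the start of the gene, 5′ to 3′ on the strand of the gene, from RefSeq on build GRCr8, with CG dinucleotides in capitals.
Il2ra (chr17:71808476-71808725, minus strand): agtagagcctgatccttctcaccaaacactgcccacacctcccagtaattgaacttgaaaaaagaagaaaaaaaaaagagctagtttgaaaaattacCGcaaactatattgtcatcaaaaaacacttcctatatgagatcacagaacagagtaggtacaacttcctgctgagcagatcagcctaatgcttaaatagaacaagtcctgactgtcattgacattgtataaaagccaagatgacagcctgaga
Il2rg (chrX:70439001-70439250, minus strand): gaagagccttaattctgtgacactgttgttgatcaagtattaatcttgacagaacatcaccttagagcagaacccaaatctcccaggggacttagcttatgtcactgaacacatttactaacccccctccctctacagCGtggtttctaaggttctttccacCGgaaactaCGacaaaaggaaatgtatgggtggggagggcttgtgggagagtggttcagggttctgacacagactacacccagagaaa
Ifngr1 (chr1:16152660-16152909, plus strand): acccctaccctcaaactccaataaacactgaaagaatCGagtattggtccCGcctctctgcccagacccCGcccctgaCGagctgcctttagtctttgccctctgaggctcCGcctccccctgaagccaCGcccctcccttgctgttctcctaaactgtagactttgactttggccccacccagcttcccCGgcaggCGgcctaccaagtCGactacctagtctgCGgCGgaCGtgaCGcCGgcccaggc
Il10rb (chr11:44132386-44132635, plus strand): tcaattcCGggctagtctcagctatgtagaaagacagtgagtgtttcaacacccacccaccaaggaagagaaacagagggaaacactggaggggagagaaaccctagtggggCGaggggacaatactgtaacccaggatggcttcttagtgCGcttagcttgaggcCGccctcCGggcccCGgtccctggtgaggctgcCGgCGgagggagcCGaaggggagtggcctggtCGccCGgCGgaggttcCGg
The window of Il2ra held 1 CG dinucleotide and that of Il2rg held 3, against 14 for Ifngr1 and 13 for Il10rb. The median over the 33469 windows of the table was 5. A window with at most 1 was found for 18.1% of all promoters, and a window with at least 14 for 27.6%. The window of Il4r held 15 and that of Il10ra 14. Both of these chains also had a positive r with neutrophil transcripts, given below, that did not pass the test. Whether the number of CG dinucleotides goes with these relations was not tested. RefSeq windows were matched for 7 of the 10 chains, and not for Il2rb, Il17ra and Csf2rb. The window of Il6st lies inside the span that RefSeq gives the gene, and its place as a promoter is uncertain. That window held 3 CG dinucleotides, as many as that of Il2rg. Il6st nevertheless had a positive r with neutrophil transcripts, which did not pass the test. In the other 6 windows TTCNNNGAA, the palindrome to which Stat dimers bind, was not found on either strand. It occurred in 7.67% of all windows. The counts were made on build rn5, so these coordinates are not those of the count files.

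The libraries held 21466886 to 31189660 counts. Levels are given as normalized counts, that is, counts divided by the DESeq2 size factor of the library, which ranged from 0.642 in control 10 to 1.46 in control 3. They carry no correction for transcript length, so levels were compared between animals and not between chains. Some libraries held transcripts of other tissues. The 8 liver genes summed to 515361 normalized counts in control 2 against at most 63606 in the others, and the 4 lymphoid precursor genes to 5770 in control 12 against at most 59.7. Results are therefore also given without controls 2 and 12 where this changed them. The 7 reticulocyte genes had their highest sum in control 10, at 979454, where the size factor was also lowest relative to the total count. This relative factor varied 1.96-fold among libraries, and scaling to the total count is given beside tests and comparisons of the chains that it changed. In whole blood, fewer cells of a type and less RNA per cell cannot be told apart.

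The 3 chains of the interleukin 2 receptor had different patterns over the animals. Il2ra, the alpha chain that gives the receptor its high affinity and marks regulatory and activated T cells, had a level of 216 ± 56.7 (mean ± SD, n = 16). It ranged from 121 in control 8 over a median of 212 to 322 in control 15. Il2rb, the beta chain shared with the interleukin 15 receptor, had a level of 946 ± 254 and ranged from 477 in control 12 over a median of 934 to 1614 in control 14. Its second highest value was 1146 and its second lowest 634. Il2rg, the common gamma chain of several interleukin receptors, had a level of 3851 ± 752. Its lowest value was 2373 in control 7, its median 3614 and its highest value 4818 in control 12. Without controls 2 and 12 the lowest Il2rb was 634 in control 16 and the highest Il2rg 4776 in control 3. Across the animals Pearson's r was 0.36 between Il2ra and Il2rg, 0.05 between Il2rb and Il2rg and −0.12 between Il2ra and Il2rb, given as descriptions over 16 libraries. Il4r, which pairs with the common gamma chain or with Il13ra1 to bind interleukin 4, had a level of 3002 ± 582. It ranged from 1996 in control 10 over a median of 3036 to 4057 in control 14.

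Csf2rb, the shared beta chain of the receptors for GM-CSF, interleukin 3 and interleukin 5, had a higher coefficient of variation than the other 9 chains under each of the 3 scalings. Its level was 3198 ± 2640 (n = 16), from 411 in control 2 over a median of 2510 to 8911 in control 14, a range of 21.7-fold. Without controls 2 and 12 the lowest value was 598 in control 3, the median 3502 and the range 14.9-fold. The coefficient of variation was then 73.6%. The values fell on 2 sides of a gap. In 8 animals (controls 2, 3, 4, 5, 6, 10, 12 and 16) the level was between 411 and 1522, and in the other 8 it was between 3498 and 8911. Both sides held libraries of runs A, B, C and D. The ratio of Csf2rb to Il2rg within an animal, which does not depend on scaling, varied 25.9-fold and was lowest in control 2 and highest in control 8.

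For the chains of the interleukin 10 receptor, the coefficient of variation was higher for Il10rb than for Il10ra, a difference that was not tested. Il10ra, which binds interleukin 10, had a level of 1023 ± 305 and ranged from 618 in control 10 over a median of 1020 to 1681 in control 8. Il10rb, which also serves the receptors for interleukin 22 and the type III interferons, had a level of 1218 ± 568, from 617 in control 6 over a median of 1073 to 2748 in control 8. The coefficient of variation was 29.8% ± 5.05 (jackknife SE) for Il10ra and 46.7% ± 10.9 for Il10rb. Scaled to the total count it was 34.0% for Il10ra and 40.5% for Il10rb. Ifngr1, the chain that binds interferon gamma, had a level of 4889 ± 2053, from 2292 in control 6 over a median of 4976 to 8720 in control 8. The lowest and the highest animal were therefore the same for Il10rb and Ifngr1. Scaled to the total count both were lowest in control 10, while Il10rb was highest in control 8 and Ifngr1 in control 15. Il6st, known as gp130, the signalling chain of the interleukin 6 family, had a level of 1267 ± 276 and ranged from 909 in control 5 over a median of 1253 to 2016 in control 4. Il17ra, the shared chain of the interleukin 17 receptors, had a level of 11353 ± 4176 and ranged from 5500 in control 10 over a median of 11557 to 19591 in control 15.

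**Figure D1:**
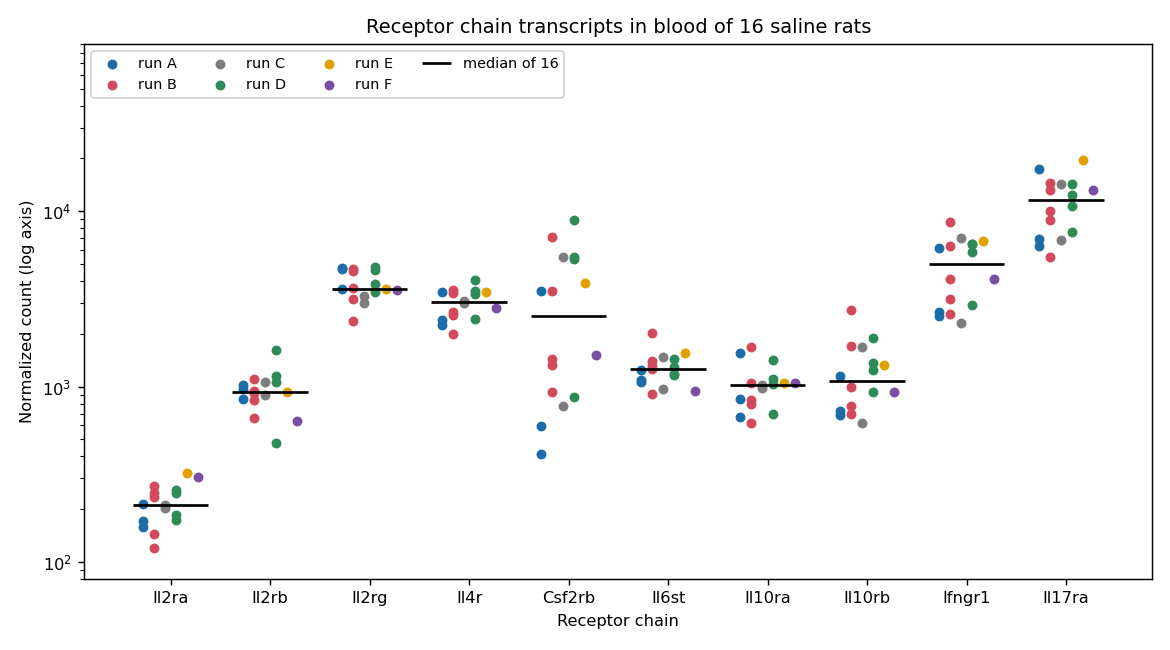
Normalized counts of the 10 receptor chains (log axis) in the 16 saline control rats, 1 point per animal coloured by run code, with a bar at the median. Csf2rb spread from 411 to 8911 with no animal between 1522 and 3498, while Il2rg and Il4r stayed within a 2.03-fold range.

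The chains spread from below to well above the typical gene. The median coefficient of variation was 28.3% over the 10 chains and 24.8% over the 8672 genes with a mean normalized count of at least 100. Of the 10 chains, 7 were above the median of all genes, and Csf2rb, Il10rb, Ifngr1 and Il17ra were above the 75th percentile, 36.76%. These genes were not matched to the chains for abundance. The lowest coefficients belonged to Il4r, 19.4% ± 2.94 (jackknife SE), and Il2rg, 19.5% ± 3.01, which did not differ beyond these errors. Il6st followed at 21.8% ± 5.92. At the other end were Csf2rb, 82.5% ± 14.1, and then Il10rb, which came after Ifngr1 and Il17ra when scaled to the total count. Scaled to the total count, the medians were 34.7% for the chains and 31.6% for all genes, and 9 of the 10 chains were above the median.

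Each chain was then set against marker lists for 6 cell types, using log2 levels and the mean log2 level of a list. Of these 60 relations, 12 passed an adjusted p of 0.05 in a permutation test over animals, adjusted over all 51986 relations of genes with lists. The smallest p that the 100000 permutations can give is 1e-05. Markers of all 6 cell types were present, but Cd79a, Fasl and Ccr2 of the lists were not found. Cd3e of T cells averaged 1848 normalized counts, Cd79b of B cells 3623, Prf1 of cytotoxic cells 2025, Csf1r of monocytes 2344 and S100a9 of neutrophils 180930, while Foxp3 of regulatory T cells averaged 85.9. In the regulatory T cell list Tnfrsf4, Ctla4, Lrrc32 and Ikzf2 were lower still, at 45.1, 28.3, 17.0 and 14.5. Ikzf4 of that list (2.95) and Ltf of the neutrophil list (6.04) were below the mean of 10 needed to enter a level. Some lists moved against each other and others moved together. The neutrophil list had r = −0.66 with the T cell list, −0.71 with the B cell list and 0.47 with the monocyte list. The regulatory T cell list had r = 0.66 with the T cell list and 0.55 with the B cell list. A relation with one list is therefore not independent of the others.

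Il10rb, Ifngr1 and Csf2rb rose with the neutrophil list. For Il10rb r was 0.97 (p = 1e-05, adjusted p = 0.00111, permutation test, n = 16) and rho 0.98 (p = 1e-05, adjusted p = 0.00144, permutation test). For Ifngr1 r was 0.92 and rho 0.94, and for Csf2rb r was 0.91 and rho 0.92, with the same p-values as Il10rb. Such a positive call was made for 15.2% of all genes, against 3 of the 10 chains, and a negative call for 6.94% against none of the chains. Without the 2 animals farthest from the median of the list (controls 8 and 14), r was 0.96, 0.92 and 0.90 in the same order. Centred within runs it was 0.99, 0.93 and 0.91, and scaled to the total count 0.94, 0.87 and 0.91, all still passing the test. The summed level of the 11 neutrophil markers ranged from 36029 to 1182118 normalized counts, highest in control 8, and the second highest animal had 699207.

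Il10ra and Il17ra had r of 0.67 and 0.65 with the neutrophil list and did not pass the test (adjusted p = 0.0528 and 0.0677, permutation test). Il4r had r = 0.56, Il6st 0.36 and Il2rb 0.14, whereas Il2ra and Il2rg had negative values of −0.35 and −0.43. None of these passed with mean log2 levels that were not centred. Centred within runs, 4 of the 10 chains passed with this list, beside 10.8% of all genes. With summed marker counts it was also 4, beside 15.6%.

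The interleukin 2 receptor chains each passed the test with a different lymphocyte list. Il2rg rose with the T cell list (r = 0.74, p = 0.00099, adjusted p = 0.0235, permutation test; rho = 0.84, adjusted p = 0.00876, permutation test). Il2ra rose with the regulatory T cell list (r = 0.80, p = 2e-04, adjusted p = 0.00872, permutation test), and its rho of 0.72 fell short (adjusted p = 0.0541, permutation test). Il2rb rose with the list of NK and cytotoxic cells (r = 0.76, p = 0.00167, adjusted p = 0.0307, permutation test), and its rho of 0.69 fell short (adjusted p = 0.0772, permutation test). A positive call with these lists was made for 6.65%, 5.95% and 0.208% of all genes. The last share is 18 genes of 8663, of which Il2rb is 1, and no gene had a negative call with that list (0%). Negative calls with the regulatory T cell list were made for 2.23% of genes. Without the 2 farthest animals r was 0.74 for Il2rg (controls 4 and 8), 0.72 for Il2ra (controls 8 and 12) and 0.62 for Il2rb (controls 14 and 16), and none of the 3 passed (adjusted p = 0.0940, 0.119 and 0.219, permutation test). Centred within runs r was 0.77, 0.84 and 0.78, of which only Il2ra passed (adjusted p = 0.122, 0.0331 and 0.166, permutation test). Scaled to the total count r was 0.90, 0.91 and 0.84, and all 3 passed. Under that scaling 46.4% of all genes had a positive call with the T cell list, 54.5% with the regulatory T cell list and 4.51% with the NK and cytotoxic cell list. With summed marker counts in place of mean log2 levels, Il2ra had r = 0.64 with the regulatory T cell list and fell short (adjusted p = 0.0627, permutation test). Centred within runs, 1 chain other than Il2rg had a positive call with the T cell list, beside 3.67% of all genes. Whether Il2ra relates to the regulatory T cell list differently from the T cell list, with which r was 0.63 (adjusted p = 0.0733, permutation test), was not tested.

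Falling relations with lymphocyte lists depended on the processing. Ifngr1 and Il10rb fell with the T cell list (r = −0.70 and −0.72, adjusted p = 0.0442 and 0.0333, permutation test), and Csf2rb, Ifngr1 and Il10rb fell with the B cell list (r = −0.68, −0.71 and −0.74, adjusted p = 0.0473, 0.0347 and 0.0246, permutation test). Il10rb also fell with the regulatory T cell list (r = −0.68, adjusted p = 0.0461, permutation test). Over all genes 5.38% had a negative call with the T cell list and 4.86% with the B cell list, and 3.38% had a positive call with the B cell list, where no chain had one. Scaled to the total count none of these 6 passed. Ifngr1 and Il10rb then had r of −0.11 and −0.16 with the T cell list, Csf2rb, Ifngr1 and Il10rb had −0.34, −0.18 and −0.24 with the B cell list, and Il10rb turned to 0.07 with the regulatory T cell list. Under TMM scaling Csf2rb and Ifngr1 with the B cell list (adjusted p = 0.0681 and 0.0551, permutation test) and Il10rb with the regulatory T cell list (adjusted p = 0.131, permutation test) no longer passed. None of the 6 passed by rank correlation (rho from −0.54 to −0.63) or without the 2 farthest animals. Without controls 2 and 12 the 3 relations with the B cell list were −0.59, −0.65 and −0.71 and no longer passed (adjusted p = 0.139, 0.0896 and 0.0577, permutation test), and centred within runs they were −0.84, −0.82 and −0.82 and did not pass either (adjusted p = 0.0525, 0.0809 and 0.0570, permutation test). Centred within runs, 1 other chain had a negative call with the B cell list, beside 2.38% of all genes. With the regulatory T cell list 3 chains then had a negative call, beside 8.05%. Scaled to the total count, 2 chains had a positive call with the B cell list, beside 42.7% of all genes.

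No chain passed with the monocyte list. Ifngr1 (0.65), Il17ra (0.63), Il10ra (0.62) and Csf2rb (0.61) had the highest r (adjusted p = 0.0675 to 0.0884, permutation test), and 1.29% of all genes had a positive and 0.635% a negative call. Under TMM scaling these 4 chains passed, with r of 0.78, 0.76, 0.69 and 0.71. Scaled to the total count they passed as well, as did Il10rb (r = 0.64) and Il4r (r = 0.71). The positive calls over all genes were 4.18% under TMM and 25.7% scaled to the total count. With summed marker counts in place of mean log2 levels, 3 of the 10 chains passed, beside 11.0% of all genes. That sum was made up mostly of Lyz2, which averaged 189126 normalized counts, against 2588 for the next gene, Fcgr1a. Lyz2 was lowest in control 6 and highest in control 8, as was the summed neutrophil level.

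**Figure D2:**
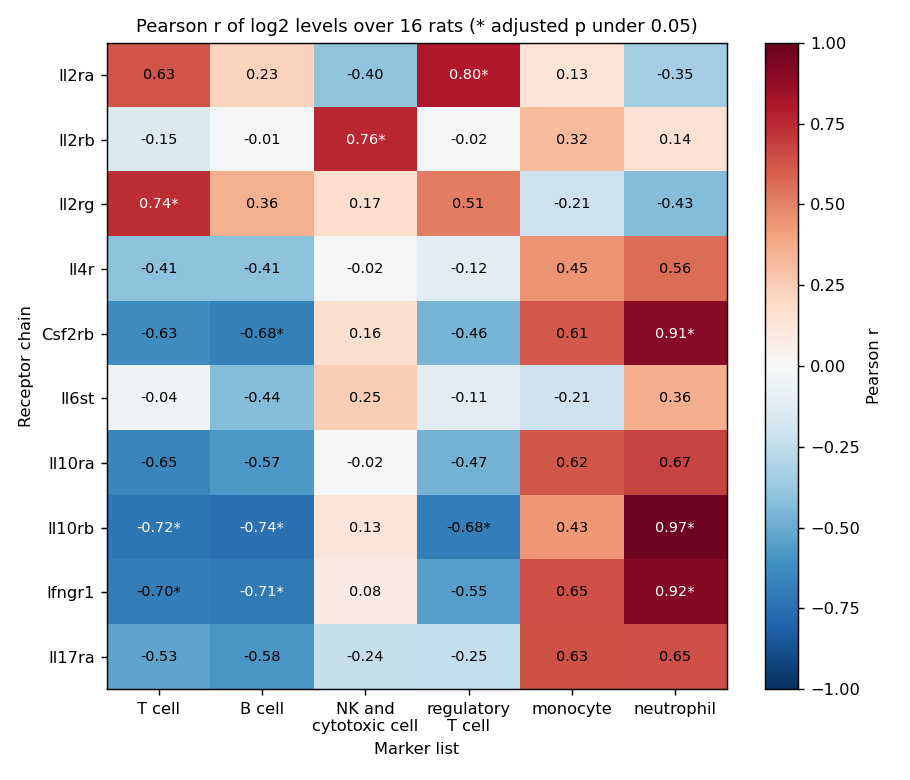
Pearson r over the 16 rats between the log2 level of each receptor chain (rows) and the mean log2 level of 6 marker lists (columns), with an asterisk where the adjusted permutation p was under 0.05. Il10rb, Ifngr1 and Csf2rb had r of 0.97, 0.92 and 0.91 with the neutrophil list, and Il2rg, Il2ra and Il2rb each had their highest r with a different lymphocyte list.

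**Figure D3:**
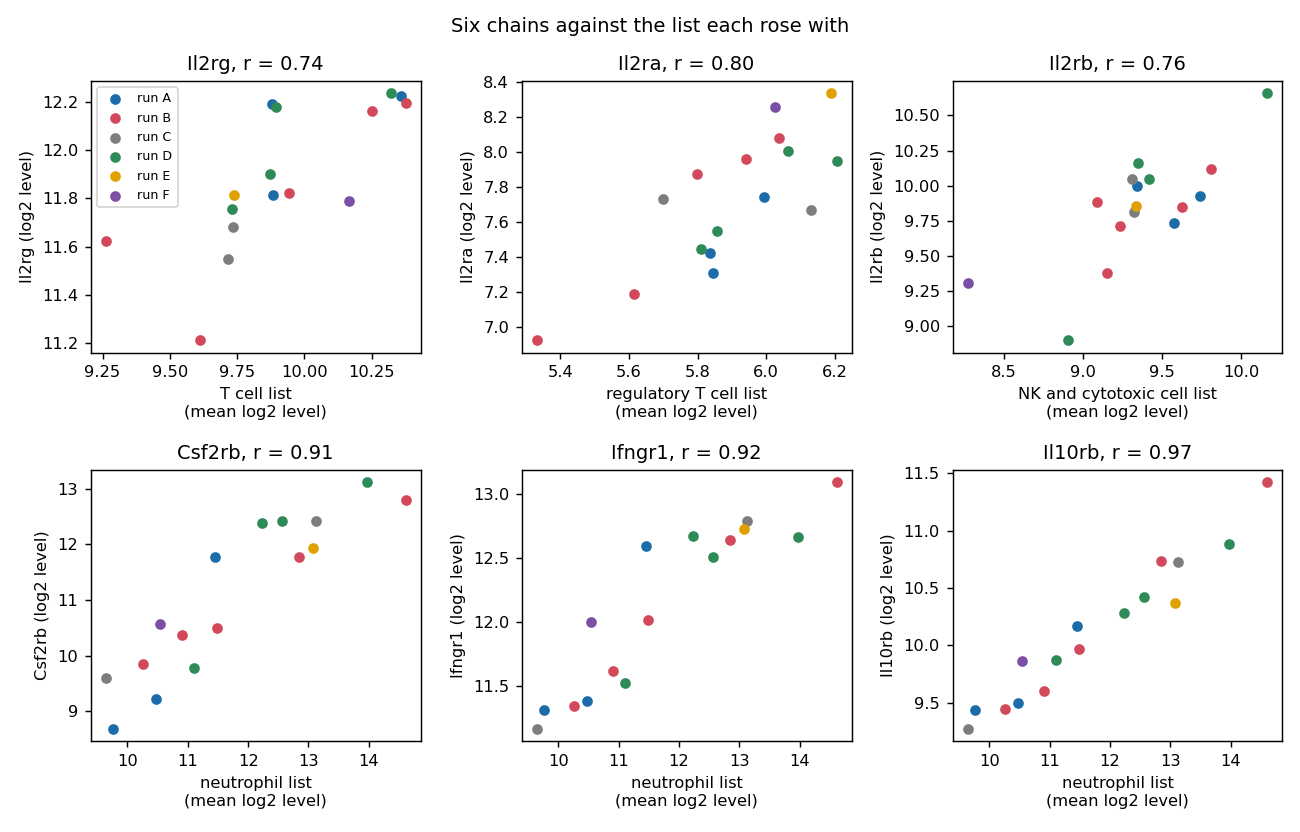
Log2 level of 6 chains against the mean log2 level of the marker list each rose with, 1 point per animal coloured by run code. Il10rb lay close to a line over the whole range of the neutrophil list (r = 0.97), and the points of Il2rb include control 14 at the top right and control 16 at the lowest list level.

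The difference between the relations with T cells and with monocytes was tested directly. For 5 chains, r with the T cell list minus r with the monocyte list was below 0 and passed the test. It was −1.34 for Ifngr1 (adjusted p = 0.00683), −1.28 for Il10ra (adjusted p = 0.0143), −1.24 for Csf2rb (adjusted p = 0.0150), −1.16 for Il17ra (adjusted p = 0.0242) and −1.15 for Il10rb (adjusted p = 0.0273), all by permutation over the 16 animals. Among all genes 11.5% were closer to the monocyte list and 7.19% closer to the T cell list. The neutrophil list had r = −0.66 with the T cell list and 0.47 with the monocyte list. This measure therefore does not separate a relation with monocytes from one with neutrophils. Il2rg had a difference of 0.95 in the other direction (adjusted p = 0.0743, permutation test), which passed under TMM scaling (1.08, adjusted p = 0.0328) and by ranks (1.14, adjusted p = 0.0228). The remaining 4 chains were not separated by this measure, with −0.86 for Il4r, −0.46 for Il2rb, 0.50 for Il2ra and 0.16 for Il6st. Scaled to the total count none of the 10 passed. The 5 differences then kept their sign at −0.91 to −0.61 (adjusted p = 0.0632 to 0.223, permutation test).

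The genes whose level was most like that of each chain over the 16 animals are given as a description, out of 8671 genes. For Il2rb they were Tbx21 (r = 0.83), Eomes (0.79) and Runx3 (0.78), all transcription factors of cytotoxic lymphocytes. Tbx21 and Eomes are also in the list of NK and cytotoxic cells. For Il10rb they were Ifngr2 (0.99), the second chain of the interferon gamma receptor, Srgn (0.98), the proteoglycan of secretory granules, and Ceacam10 (0.98). For Ifngr1 they were Hlx, C5ar1, the receptor of complement C5a, and MGC112715 (0.99, 0.98 and 0.98). For Csf2rb they were Sbno2, Nos2, the inducible nitric oxide synthase, and Ampd3 (0.99, 0.99 and 0.98). For Il17ra they were Il6r (0.98), which binds interleukin 6, Ctsf (0.96) and Cant1 (0.96). For Il10ra they were Map3k11, Aim1 and Tnfrsf1b, a receptor of tumour necrosis factor (0.93, 0.92 and 0.91). Il4r was most like Wdr33, Flii and Xab2 (0.96, 0.95 and 0.94), and Il2rg most like Nup93, Tsr1 and Pus1 (0.93, 0.88 and 0.87). The likeness was lower for Il2ra, with Wdr77, RGD1308005 and Add3 (0.82 each), and lowest for Il6st, with Acap1, Acat3 and Dopey1 (0.75, 0.74 and 0.74). Among the chains themselves the highest values were 0.95 for Csf2rb with Ifngr1, 0.93 for Ifngr1 with Il10rb, 0.90 for Csf2rb with Il10rb and 0.85 for Ifngr1 with Il17ra. All of these points share their library and its scaling.

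The ligands of these receptors had few counts. Of the 16 ligands listed in every file, 2 had a mean normalized count of at least 100. These were Osm, oncostatin M, which signals through Il6st (182 ± 117, SD, n = 16), and Il15, which signals through Il2rb and Il2rg (122 ± 27.7). Cntf averaged 45.2 ± 11.0 and Il7 30.4 ± 22.5. Il6 averaged 5.83, Il10 3.98, Ifng 2.95, Il2 1.87 and Il4 0.573. Csf2, the gene of GM-CSF, had 0 counts in all 16 libraries, which allows up to 3 counts in a library or 2.06 to 4.67 normalized counts, for counting error only. A further 9 ligands were not listed in every file and have no value here. Osm rose with the neutrophil list (r = 0.79, adjusted p = 0.0128, permutation test), and Il15 had r = −0.40 (adjusted p = 0.343, permutation test).

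Of the 10 partner chains that were tested, 6 rose with the neutrophil list, beside 15.2% of all genes. These were Ifngr2, the partner of Ifngr1 (r = 0.97), Il13ra1, the partner of Il4r (0.94), Csf2ra and Il3ra, which pair with Csf2rb (0.92 and 0.78), Il22ra2 (0.74) and Crlf2 (0.73). The last 2 partner none of the 10 chains directly, since Il22ra2 is a soluble decoy for interleukin 22 and Crlf2 pairs with Il7r. One partner of the common gamma chain, Il21r, fell with it (r = −0.77, adjusted p = 0.0118, permutation test) and rose with the T cell list (0.73), as did Il27ra (0.82), which pairs with Il6st. The mean normalized count was 3990 ± 2366 (SD, n = 16) for Il13ra1, 3439 ± 861 for Il6r, 2866 ± 1906 for Ifngr2 and 2655 ± 861 for Il7r. Il6r, Il7r and Il27ra did not pass with the neutrophil list (r = 0.57, −0.31 and −0.65). The other 17 partner chains were below a mean of 100, among them Il12rb1 at 57.2 and Il15ra at 23.7.

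Of the 11 Janus kinases and Stat factors, 4 rose with the neutrophil list, among them Stat3 (r = 0.94), which transmits interleukin 6 and interleukin 10 signals, Jak2 (0.87) and Stat5b (0.74). Jak3, the kinase bound to the common gamma chain, had r = 0.19 (adjusted p = 0.720, permutation test). Stat4 rose with the T cell list (r = 0.72, adjusted p = 0.0325, permutation test). The mean normalized count was 6776 ± 994 (SD, n = 16) for Jak1, 3788 ± 2157 for Stat3 and 2894 ± 569 for Stat6. The 9 feedback inhibitors and phosphatases that were tested had 5 risers with the neutrophil list, Socs3 (0.94), Ptpn2 (0.87), Pias1 (0.80), Ptpn6 (0.73) and Cish (0.73). Socs3, which inhibits signalling from gp130, ranged from 103 to 4465 normalized counts, with control 14 the highest, as for Csf2rb. The mean was 4740 ± 1338 for Ptpn6, 2113 ± 821 for Ptpn11 and 784 ± 162 for Pias1. Of the 5 adaptors of Il17ra, none rose with the neutrophil list, and Traf3ip2, which binds the receptor directly, and Traf5 fell with it (r = −0.80 for each). Traf2 (468 ± 47.1), Traf3 (370 ± 111) and Traf6 (164 ± 42.5) had r of −0.45, 0.33 and 0.38.

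The libraries of run codes A (controls 1 to 3, n = 3), B (controls 4, 5, 7, 8 and 10, n = 5) and D (controls 11 to 14, n = 4) were compared, in order to see whether the levels of the chains shifted between the codes. The study repeated its experiment on separate dates, which the labels do not assign to animals, so a run code and an experiment cannot be told apart here. None of the 10 chains passed an adjusted p of 0.05 in edgeR's quasi-likelihood test in any of the 3 comparisons, and none had an unadjusted p under 0.05. Over all 12952 genes 0% were called between A and B, 0% between A and D and 2.3% between B and D. DESeq2 also called none of the chains, although it called 566, 14 and 742 genes. Csf2rb had the highest estimates. Its mean level was 1502 ± 1731 (SD, n = 3) in run A, 2870 ± 2598 (n = 5) in run B and 5154 ± 3295 (n = 4) in run D. The log2 fold change of D over A was 1.77 ± 0.96 (SE; unadjusted p = 0.0908, adjusted p = 0.918, edgeR), that of D over B 0.87 ± 0.80 and that of B over A 0.90 ± 0.90. In each run the values overlapped with those of the others, since run D held control 12 at 875 and run A held control 1 at 3498. For the other 9 chains the log2 fold changes were between −0.26 and 0.67, the lowest being Il2rg from A to B (−0.26 ± 0.23) and the highest Il10rb from A to B (0.67 ± 0.44, unadjusted p = 0.148). None of the ligands, partner chains, kinases, Stat factors, adaptors or inhibitors that were tested was called between runs, the lowest adjusted p being 0.193 for Il6 between B and D (edgeR).

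**Figure D4:**
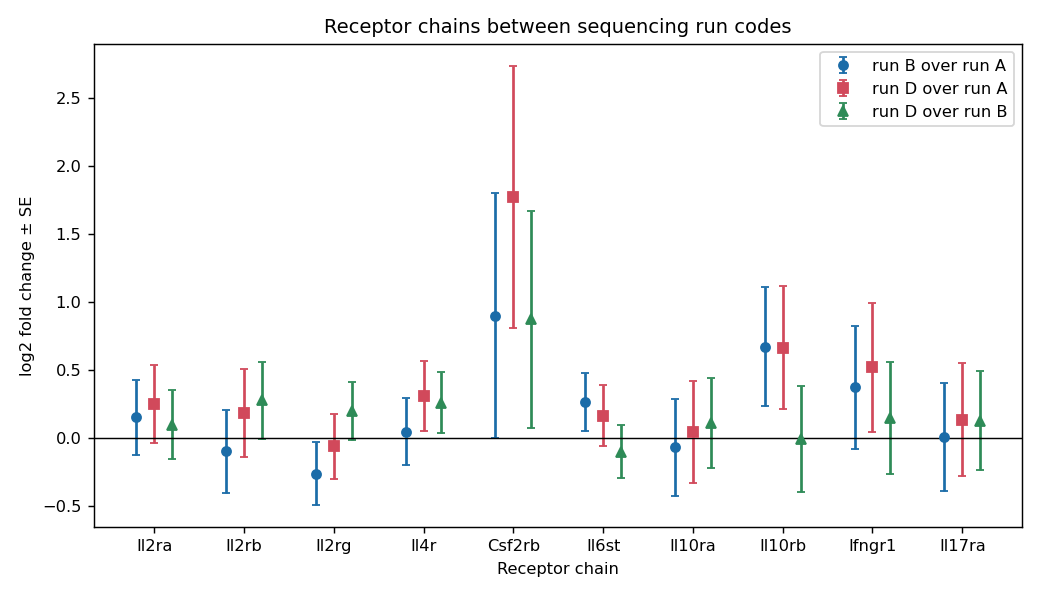
Log2 fold change ± SE (edgeR) of the 10 receptor chains between run codes A (n = 3), B (n = 5) and D (n = 4). Csf2rb lies highest at 1.77 ± 0.96 for D over A, and none of the 30 changes passed the adjusted threshold.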

How the data were processed

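RNA from whole blood of 16 rats was sequenced as paired ends of globin-depleted, strand-specific libraries. Per the submitters' processing notes and the methods, the authors made reads with CASAVA 1.8.2, clipped them, aligned them with Bowtie 0.12.9 to an Ensembl transcriptome of rn5 and estimated counts with RSEM 1.2.0. The deposited values are expected counts per gene, not normalized, in which RSEM divides a read that fits several transcripts. The authors' replacement of outlying values was not applied here.

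Expected counts were rounded to whole numbers, and the 18031 genes listed in all files were kept. The file names carry 6 codes, lettered A to F here, which were taken as run codes and used as batches. The labels do not say what the codes stand for. Repeated experiments on separate dates, described in the methods, may coincide with these codes and cannot be told apart from them here. Levels were divided by DESeq2 1.42.0 size factors, and log2 levels had a pseudocount of 1. Runs with at least 3 libraries were compared with edgeR 4.0.16 (R 4.3.3; TMM, filterByExpr, quasi-likelihood F-test, Benjamini-Hochberg). Relations with marker lists were tested two-sided with 100000 permutations of the animals over 8672 genes of mean normalized count at least 100. Marker genes needed a mean of at least 10. Adjustment covered all genes and lists rather than the 60 relations of the chains, which had been planned. Values centred within runs were permuted within runs. Code was tested on simulated data. The permutation code ran in Python 3.11.15 with numpy 2.4.6 (tables with pandas 2.3.3, ranks with scipy 1.17.1), and figures were drawn with matplotlib 3.10.9.

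The chains and lists were chosen with earlier results of these data known. Named genes were the 10 chains, the 4 of highest mean in each pathway list, those called between runs, the 3 most like each chain, and marker genes that show which are highest. Some genes under this rule are not reported here. Pathway genes that passed with the neutrophil or T cell list, and low ligands and partner chains, were named after their values were seen. All libraries differed by more than sampling noise (lowest chi-square per degree of freedom 48.0) and counted as 1 sample each. The labels name separate animals. An order of levels between chains was not made, since no transcript lengths were used here.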

Additional observations from a re-analysis of the deposited data

How the results depend on the processing

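The number of relations between chains and lists that passed, 12 of 60, was 13 with TMM, 18 scaled to the total count, 14 with summed marker counts, 12 centred within runs and 9 without controls 2 and 12, but 4 by rank correlation and 3 without the 2 farthest animals. These totals are not made up of the same relations. Of the 12, 9 still passed with TMM, 6 scaled to the total count, 10 with summed marker counts and 7 centred within runs. The relations of Csf2rb, Ifngr1 and Il10rb with the neutrophil list passed under all 7 alternatives. Leaving out each of the 16 libraries in turn, which was added after seeing the data and computed for r alone, kept the sign of all 12, and the weakest was Il10rb with the regulatory T cell list (−0.49 without control 8). Scaled to the total count that relation reversed to 0.0728. The difference between the T cell and monocyte relations passed for 5 chains and for none scaled to the total count. Values that passed in no setting and changed sign were those of Il2rb without controls 2 and 12 (0.0651) and of Il6st by ranks (−0.212). The median coefficient of variation of 28.3% ± 3.09 (jackknife SE) moved to 34.7% scaled to the total count. The cause was not tested.

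The share of genes called between runs depended on single libraries. Between A and B it was 0% (13.5% at an unadjusted p under 0.05), with 4.37% by DESeq2 and 0% to 3.93% with 1 library left out (0.0075% without control 1, 0.0076% without control 2, 3.93% without control 4). Between A and D it was 0% (5.41% unadjusted), with 0.108% by DESeq2 and 0% to 0.015% with 1 library left out (0.015% without control 1, 0.0076% without control 2). Between B and D it was 2.3% (5 genes higher and 293 lower in D), with 5.73% by DESeq2, 1.16% without the filter on low counts, 0.0463% scaled to the total count and 0.0155% to 5.44% with 1 library left out. It was 5.44% without control 4, 0.0233% without control 5, 0.737% without control 7, 0.457% without control 10, 0.0156% without control 11, 0.211% without control 12, 0.0232% without control 13 and 0.0155% without control 14. Scaling to the total count moved the median log2 fold change over all genes to −0.50 from A to B and 0.53 from B to D. The chains were called in none of 360 values under these alternatives. The planned comparison of neighbouring levels was not run. No paired analysis was possible because all libraries belong to 1 group. Counts as low as 93 (Il2ra) limit the precision of that chain.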
